A study of Mus musculus with 21 samples.

Results

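The 6 libraries compared here are, of 21 in the series, the 3 libraries labelled Ialpha-delta-i3CBEc (called Iadel-i3CBEc) and the 3 labelled i3CBEc. They were chosen by genotype alone, to ask what deletion of Iα does to switch joins in cells that carry an insertion of 3 CTCF-binding elements (CBEs). They hold 8980 of the 40530 junctions of the series, and 1 junction is 1 line of a deposited junction table. The cells are CH12F3, a line of mouse B lymphoma cells whose switching goes from IgM to IgA, and all were stimulated for 72 h with TGF-β, IL4 and anti-CD40. In the starting line the Sμ to Sα segment of the non-coding IgH allele is deleted. The labels place the i3CBEc insertion in this line. For Iadel-i3CBEc they name Iα-deleted cells as the parent, and that deletion is given only in the label of the separate group of Iα-deleted cells. i3CBEc carries the 3 CBEs, convergent per the labels with the 3'CBEs, the CTCF sites beyond the last constant gene. Iadel-i3CBEc lacks Iα and carries the 3 CBEs at a place downstream of Cγ2a, and the labels name its orientation only through the shared name. The labels do not say whether the libraries of a group came from separate clones or cultures, so the spread between libraries may be technical. Exact permutation p-values rest on the 6 libraries alone. The SEs and p-values of limma use the spread within the groups of all 21 libraries, some of which were read in several runs.

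In class switching, the enzyme AID opens breaks in repetitive switch regions, which are rich in the motif AGCT, and a broken Sμ end is joined to a broken acceptor switch region. Each acceptor is made a target by germline transcription from its own I promoter, and Iα is the promoter and first exon of the Sα transcript. CTCF bound at its sites can halt the cohesin that reels in chromatin, and the study's design text names loop extrusion in class switching as its question. CSR-HTGTS-seq reads, from a fixed Sμ bait, the sequence (prey) to which each bait end was joined.

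The following 100-base windows show what the joins entered. Each holds the most joins of its region in the group where that region was used more. In μ, the part next to the bait was left out of this search. They are built from the prey reads, written on the minus strand of chromosome 12 in the deposited mm9 scale of the insertion libraries, with AGCT in capitals.
Stretch with the insertion, chr12:114521685-114521784, 46 joins in Iadel-i3CBEc and 3 in i3CBEc, chosen in Iadel-i3CBEc: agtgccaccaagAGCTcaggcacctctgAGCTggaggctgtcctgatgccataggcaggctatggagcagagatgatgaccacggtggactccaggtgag
Sε, chr12:114514530-114514629, 17 and 2 joins, chosen in Iadel-i3CBEc: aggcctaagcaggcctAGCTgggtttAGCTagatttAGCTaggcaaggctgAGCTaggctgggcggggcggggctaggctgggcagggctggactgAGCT
Sα, chr12:114500167-114500266, 0 and 134 joins, chosen in i3CBEc: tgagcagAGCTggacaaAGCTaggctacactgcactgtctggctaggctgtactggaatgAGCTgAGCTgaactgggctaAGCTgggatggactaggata
Sμ, chr12:114663638-114663737, 180 and 60 joins, chosen in Iadel-i3CBEc: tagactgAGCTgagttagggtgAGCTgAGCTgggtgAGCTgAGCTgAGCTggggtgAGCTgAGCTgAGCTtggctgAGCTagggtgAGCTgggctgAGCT
AGCT occurs 2 times in the window of the stretch, 5 times in each of the windows of Sε and Sα, and 12 times in that of Sμ.

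The bait is shown on the same strand (chr12:114664879-114665010), from the read with the longest gapless bait alignment. Its sequence was not compared between the groups.
Bait: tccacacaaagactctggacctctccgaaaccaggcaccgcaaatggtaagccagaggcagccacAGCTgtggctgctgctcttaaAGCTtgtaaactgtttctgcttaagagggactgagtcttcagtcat
The most used bait end, 114664975, made up 4.81% of the joins of Iadel-i3CBEc and 4.65% of those of i3CBEc, and the next, 114664954, made up 4.66% and 4.47%. These are descriptions with no test.

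The Iadel-i3CBEc libraries held 2129, 1576 and 1447 junctions and the i3CBEc libraries 1391, 1257 and 1180. No read was shared between libraries. A group total of 0 junctions in a region allows a share of up to 0.0582% in Iadel-i3CBEc and 0.0784% in i3CBEc (3 junctions over the group's total), and such limits cover counting error alone, since no molecular identifiers are given. Per the read names, all 3 i3CBEc libraries come from run 389 and all 3 Iadel-i3CBEc libraries from run 490, so genotype and run cannot be told apart, and no within-run value exists. The median prey alignment was 120, 111 and 104 bases in Iadel-i3CBEc and 86, 99 and 100 bases in i3CBEc, and the part of this difference in the results was not tested beyond the length limit given with the α joins. Of 8665 distinct joins (prey position, strand and bait end), 222 were found in more than 1 library and 57 of these in both groups. In the stretch with the insertion, 40 of 572 distinct joins recurred, 39 of them among the Iadel-i3CBEc libraries. Outside the IgH window 9 of 3793 recurred. With all recurring joins left out (chosen after seeing the data), the stretch held 10.6% of junctions in Iadel-i3CBEc and 0.937% in i3CBEc, close to the values with them.

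In the insertion cells without Iα, joins to α were nearly absent, and the stretch with the insertion, ε and γ2a took several times larger shares of the junctions. The α unit (chr12:114492000-114507999) contains Sα, the acceptor of IgA switching. It held 557, 498 and 448 junctions in the i3CBEc libraries and 5, 8 and 3 in the Iadel-i3CBEc libraries. The shares of all junctions were 39.2% ± 1.10 (SD, n = 3) in i3CBEc and 0.317% ± 0.166 (SD, n = 3) in Iadel-i3CBEc, 124-fold lower. Every Iadel-i3CBEc library lay below every i3CBEc library. In limma on log2(percent + 0.05) over all 21 libraries the difference was -6.83 (SE 0.51, adjusted p = 1.79e-10).

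The stretch with the insertion (chr12:114516000-114527999) lies between Sε and Sγ2a and holds the place of Cγ2a. It held 237, 172 and 177 junctions in Iadel-i3CBEc against 13, 17 and 6 in i3CBEc. Its share was 11.4% ± 0.707 (SD, n = 3) in Iadel-i3CBEc and 0.932% ± 0.422 (SD, n = 3) in i3CBEc, 12.3-fold higher, and the libraries did not overlap. The limma difference was 3.64 (SE 0.87, adjusted p = 0.00103). AGCT occurred 0.542 times per 100 bases of its 10326 bases read. Its bin next to Sε (114516000) had 1.19 AGCT per 100 bases, over the limit of 1 used for switch blocks, and lies outside Sε only because its 1263 bases read are under the minimum of 2000, which was set so that the blocks end at the borders of the stretch.

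The ε unit (chr12:114508000-114515999) contains Sε, the acceptor of IgE switching. It held 71, 41 and 33 junctions in Iadel-i3CBEc and 4, 2 and 10 in i3CBEc. The shares were 2.74% ± 0.540 and 0.431% ± 0.366 (SD, n = 3 each), 6.35-fold higher in Iadel-i3CBEc (12.3-fold without i3CBEc library 3, which holds 10 of the 16 joins). The limma difference was 2.79 (SE 0.56, adjusted p = 4.12e-04).

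The γ2a unit (chr12:114528000-114540499), with Sγ2a, held 12, 8 and 6 junctions in Iadel-i3CBEc and 2, 1 and 0 in i3CBEc. The shares were 0.495% ± 0.0753 and 0.0744% ± 0.0720 (SD, n = 3 each), 6.65-fold higher in Iadel-i3CBEc (12.5-fold without i3CBEc library 1), with a limma difference of 2.33 (SE 0.54, adjusted p = 0.00103). The acceptors between γ2a and the bait were almost unused in both groups. γ3 held 0 junctions in Iadel-i3CBEc and 1 in i3CBEc, γ2b held 0 and 1, and γ1 held 3 (1 in each library) and 0. At this depth no difference in γ3, γ2b or γ1 could be detected, and no fold is given.

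The gains did not add up to the α joins that were lost. All acceptor regions together took 15.0% ± 0.387 (SD, n = 3) of the junctions of Iadel-i3CBEc and 40.7% ± 1.19 (SD, n = 3) of those of i3CBEc, 2.71-fold lower (limma -1.43, SE 0.34, adjusted p = 0.00103). Among the acceptor junctions themselves, the stretch made up 76.0% ± 4.01 in Iadel-i3CBEc and 2.27% ± 0.991 in i3CBEc. ε made up 18.2% ± 3.41 and 1.08% ± 0.946, γ2a 3.30% ± 0.502 and 0.180% ± 0.174, and α 2.13% ± 1.17 and 96.3% ± 0.340 (SD, n = 3 each). The order of the acceptors was thus stretch, ε, γ2a, α in Iadel-i3CBEc and α, stretch, ε, γ2a in i3CBEc. In i3CBEc the ranges of the stretch (6 to 17 joins) and ε (2 to 10 joins) overlap, and in Iadel-i3CBEc those of γ2a (6 to 12) and α (3 to 8) overlap.

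A larger share of junctions lay within the μ unit (chr12:114632500-114665010), where a bait end is joined inside its own switch region. Its share was 34.8%, 37.1% and 38.0% in the Iadel-i3CBEc libraries and 19.1%, 20.2% and 17.8% in the i3CBEc libraries. The means were 36.6% ± 1.67 and 19.0% ± 1.21 (SD, n = 3 each), 1.92-fold higher in Iadel-i3CBEc (limma 0.94, SE 0.38, adjusted p = 0.0462). Junctions outside the IgH window, on other chromosomes or farther along chromosome 12, made up 45.7% ± 1.81 and 38.2% ± 2.65. Those upstream of the bait made up 2.26% ± 0.178 and 1.64% ± 0.387. Neither passed the limma threshold (adjusted p = 0.567 and 0.189), although the libraries did not overlap. The shares downstream of α, 0.431% ± 0.118 and 0.408% ± 0.288, overlapped.

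Of the 11 regions, 8 (72.7%) did not overlap between the groups. Each of the 8 had p = 0.1 in the two-sided exact permutation test, which is the lower limit for 3 libraries against 3, and 0.138 after adjustment over the 11 regions, so this test cannot pass 0.05. The γ1 unit is 1 of the 8 with 1 join in each Iadel-i3CBEc library. In limma 6 of 12 values (50.0%) passed. Shares of a library sum to the whole, so the near absence of α joins raises every other share. Among the junctions outside the α unit, a scale chosen after seeing the data, the stretch took 11.5% ± 0.696 in Iadel-i3CBEc and 1.54% ± 0.710 in i3CBEc (SD, n = 3 each), 7.45-fold higher in place of 12.3-fold (limma 2.96, SE 1.03, adjusted p = 0.0482). ε was 3.91-fold higher on that scale (limma adjusted p = 0.0453) and γ2a 4.01-fold (limma adjusted p = 0.0493). The μ unit took 36.7% ± 1.69 and 31.3% ± 2.42, 1.17-fold higher, and did not pass (limma 0.23, SE 0.42, adjusted p = 0.657). Junctions outside the IgH window turned to a lower share, 45.8% ± 1.83 against 62.9% ± 3.42 (limma adjusted p = 0.331), as did those upstream of the bait, 2.26% against 2.69% (limma adjusted p = 0.504). Per 100 junctions of the μ unit, the stretch held 31.2 in Iadel-i3CBEc and 4.82 in i3CBEc, a fold of 6.48. On that scale ε was 3.20-fold higher and γ2a 3.55-fold higher in Iadel-i3CBEc, and α 239-fold lower.

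**Figure D1:**
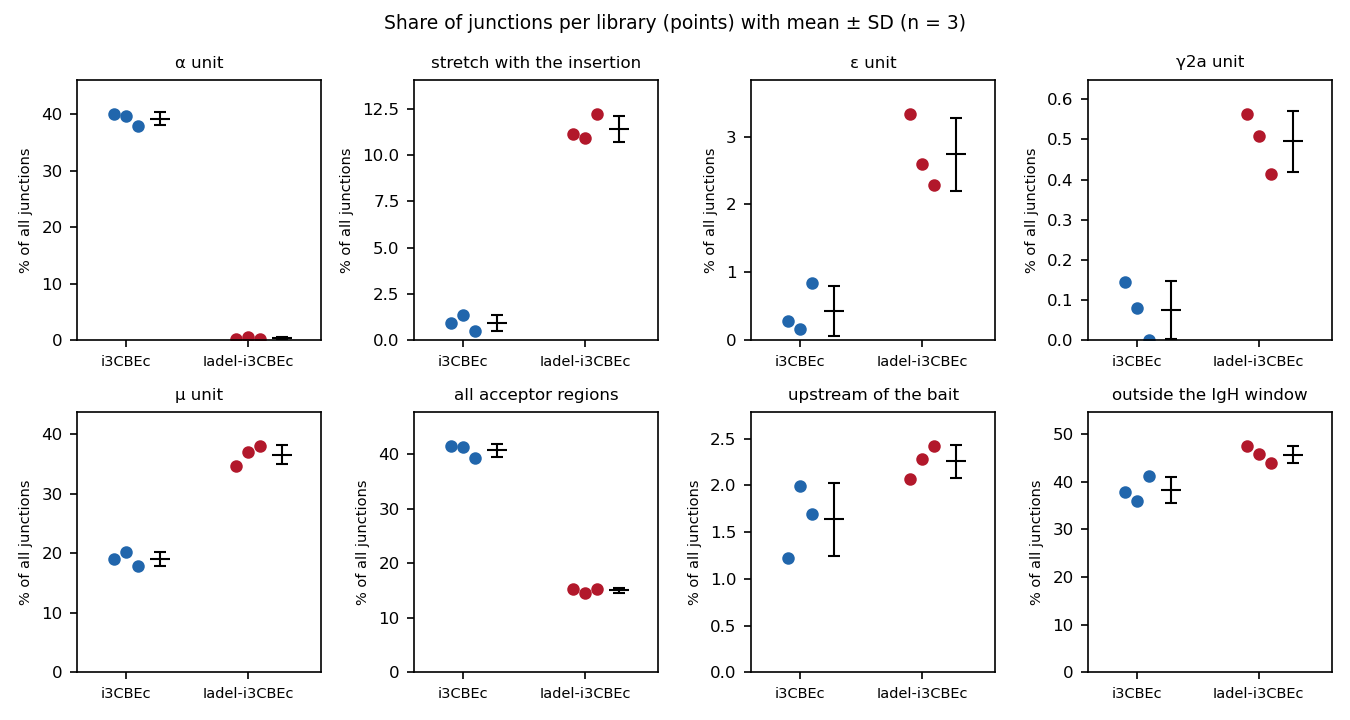
Share of all junctions in 8 regions (y axis, percent, each panel with its own scale from 0) for the 3 i3CBEc and 3 Iadel-i3CBEc libraries (points) with mean ± SD. α falls from 39.2% to 0.317% and the stretch with the insertion rises from 0.932% to 11.4%, while all acceptors together fall from 40.7% to 15.0%.

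Most of the few α joins left in Iadel-i3CBEc cannot be told from Sμ by their sequence. Of the 16, 10 were placed at 114500947 (7 joins) or 114500946 (3 joins), with 10 different bait ends and a prey alignment of 26 or 27 bases, and all 10 had 1 to 19 inserted bases between bait and prey. The longest of these reads, with the inserted bases in capitals and the prey in lower case, is shown because its whole tail of 46 bases also occurs in reads assigned to the μ unit.
Read tail placed at α: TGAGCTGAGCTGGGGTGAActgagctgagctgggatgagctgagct
That tail was present in 50 of 8088 μ reads of the series and in 15 of 2603 μ reads of the 6 libraries. With 1 more join at 114500961, the prey bases of 11 of the 16 α joins were also read in the μ unit, against 4 of 1503 α joins in i3CBEc. The other 5 lay between 114492800 and 114495295, outside the Sα block (114497000 to 114502999). They include 1 join at 114494197 found in 2 libraries. Without all reads of this kind, α held 1, 3 and 1 junctions in the Iadel-i3CBEc libraries. The shares became 0.102% ± 0.0775 and 39.1% ± 1.09 (SD, n = 3 each), 382-fold lower in place of 124-fold, and 455-fold lower with prey alignments of at least 40 bases. Both limits were chosen after the reads had been seen. In i3CBEc the 1503 α joins used 1128 positions, the most used being 114500256 with 7 joins, and 114500061 and 114500066 with 5 each.

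In 1-kb bins, limma called 26 of 62 bins (41.9%), 18 higher (29.0%) and 8 lower (12.9%) in Iadel-i3CBEc. Of the 18 higher bins, 10 reached the minimum of 10 junctions over the series through Iadel-i3CBEc alone. Such bins were let in for being high in that group, so their calls are no support by themselves. The split between higher and lower calls is thus partly set by the filter. The called bins lay in the α unit, the ε unit, the stretch, γ2a and Sμ. All 8 lower bins were in the α unit, which had 10 tested bins. Bins 114501000 (-7.82, 0 joins against 431), 114502000 (-6.48, 0 against 169), 114499000 (-6.15, 0 against 134) and 114500000 (-6.08, 11 against 660) led. Bins 114498000 (-4.83), 114497000 (-3.89) and 114496000 (-3.22) followed, each at 0 joins in Iadel-i3CBEc. Where a group is at 0, the fitted value depends on the pseudocount of 0.05. Against the limit of 3 junctions over the group, the share of bin 114501000 was at least 193-fold lower and that of 114502000 at least 75.8-fold lower.

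All 10 tested bins of the stretch were called higher, but 8 of the 10 reached the minimum of 10 junctions through Iadel-i3CBEc alone. The filter itself favoured these 8 calls, and only bins 114520000 and 114521000 did not depend on that group. The fitted log2 difference was 3.93 (SE 0.43) in bin 114520000, with 62, 43 and 33 joins against 2, 2 and 1. It was 2.88 (SE 0.70) in bin 114521000, with 86, 52 and 54 joins against 7, 9 and 3. Bin 114519000 is 1 of the 8, so its value is no support by itself. Its difference was 5.37 (SE 0.44), with 37, 29 and 37 joins against 0, at least 25.5-fold higher. The other 7 of the 8 were at 114518000 (3.17), 114522000 (2.61), 114517000 (2.42), 114524000 (2.41), 114526000 (2.15), 114527000 (1.85) and 114523000 (1.71).

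The 3 tested bins of ε were called higher, at 114514000 (2.82, SE 0.70), 114515000 (2.62, SE 0.42, 18 joins against 0, at least 4.46-fold higher) and 114513000 (2.19, SE 0.38). Bin 114515000 reached the minimum of 10 junctions through Iadel-i3CBEc alone, so the filter favoured its call, and the other 2 did not depend on that group. The most used ε positions were 114513979 and 114515041, with 3 joins each in 2 libraries. In γ2a 2 of 6 tested bins were called, 114528000 (2.66, SE 0.50, 21 joins against 1), which adjoins the stretch, and 114529000 (1.17, SE 0.41, 4 against 0). Bin 114528000 also reached the minimum through Iadel-i3CBEc alone. For 114529000 the fitted value rests on the pseudocount: against the limit of 3 junctions the bound is 0.991-fold, which is not above 1, and Iadel-i3CBEc library 1 had 0 joins there. The 4 bins farther into γ2a (114530000, 114531000, 114532000 and 114533000) held 1 junction in Iadel-i3CBEc and 2 in i3CBEc and were not called. No bin of γ3, γ1, γ2b or downstream was called, and 22 of all tested bins were empty in both groups. In Sμ, bins 114661000 (2.58, SE 0.61), 114662000 (1.54, SE 0.44) and 114663000 (1.07, SE 0.31) were called higher. The bin of the bait itself, 114664000, was not (0.36, SE 0.38). These Sμ bins are named after their values were seen. Among junctions outside the α unit, 16 of 52 bins (30.8%) were called, all higher: the 10 of the stretch, the 3 of ε, the 2 of γ2a and 114661000 (2.39, SE 0.71), and these 16 include the same 10 bins that reached the minimum through Iadel-i3CBEc alone. On that scale 114662000 (0.84, SE 0.49) and 114663000 (0.36, SE 0.35) did not pass.

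**Figure D2:**
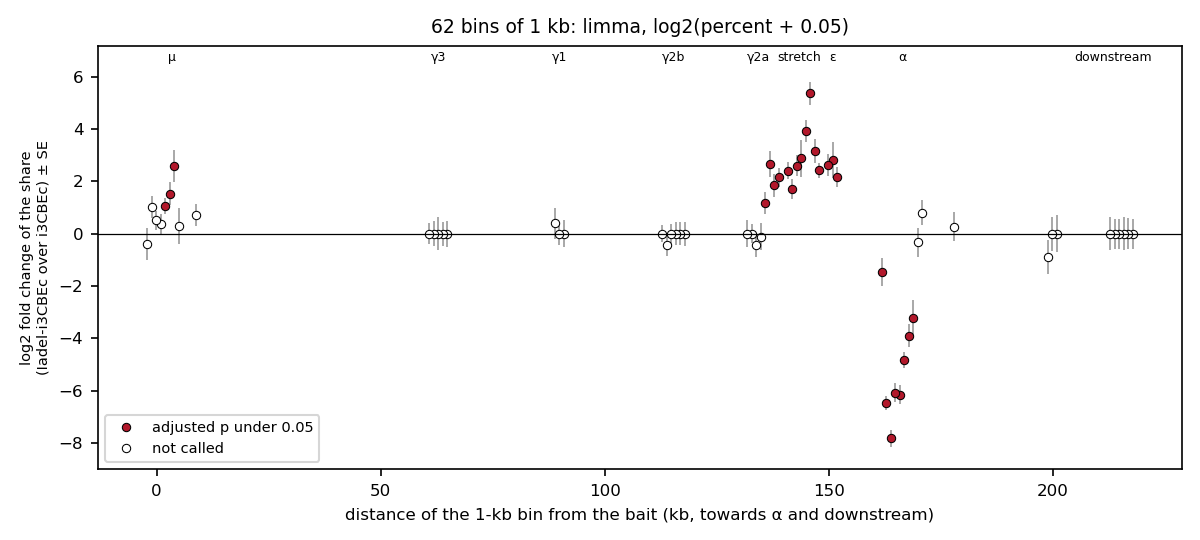
Log2 fold change of the share of junctions (y axis, Iadel-i3CBEc over i3CBEc, ± SE, limma) in 62 bins of 1 kb against the distance from the bait in kb (x axis), with filled points for adjusted p under 0.05. Higher bins cluster in Sμ and from γ2a through the stretch to ε, and the 8 lower bins lie in α. Of the 18 higher bins, 10 reached the filter through Iadel-i3CBEc alone.

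Within the stretch, the joins of Iadel-i3CBEc were mostly nearer to α than the interval with the insertion site, which held for 18 of the 36 joins of i3CBEc. From the point where the insertion libraries shift by 99 bases against the libraries without an insertion, the insertion site lies somewhere between 114521585 and 114526902. On the α side of this interval fell 383 of 586 stretch joins in Iadel-i3CBEc (65.4%, 95% Wilson interval 61.4 to 69.1) and 18 of 36 in i3CBEc (50.0%, 34.5 to 65.5). Within the interval lay 192 and 17 joins, which cannot be given to either side of the insertion, and 11 and 1 lay on its μ side. Since 122 of the Iadel-i3CBEc joins lie between 114521500 and 114521999, at the α-side edge, the interval's joins are concentrated next to that edge. The edge is the last base read at the same position with and without an insertion. It thus depends on where prey was read, and closeness to it is not closeness to the insertion site. Per library the share on the α side was 68.8%, 66.9% and 59.3% in Iadel-i3CBEc and 53.8%, 52.9% and 33.3% in i3CBEc (65.0% ± 5.00 and 46.7% ± 11.6, SD, n = 3 each, exact permutation p = 0.1). These values do not overlap, but the i3CBEc values rest on 13, 17 and 6 joins.

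By their median, the stretch joins of Iadel-i3CBEc lay farther towards ε. The median stretch position was 114520984, 114520965.5 and 114521090 in the Iadel-i3CBEc libraries and 114521288, 114521563 and 114521612.5 in the i3CBEc libraries. The difference of the means was -475 bases (exact permutation p = 0.1, no overlap). Pooled quartiles were 114519888, 114520997 and 114521750 in Iadel-i3CBEc against 114521009, 114521585 and 114521904 in i3CBEc. The span from 114519000 to 114520499, picked because i3CBEc had no join there, held 157 joins of Iadel-i3CBEc, and supports nothing by itself. Nearest to Sε, from 114516000 to 114518499, lay 26 of the 586 joins (4.44%) and 2 of the 36 (5.56%), so this end of the stretch held no larger share in Iadel-i3CBEc.

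**Figure D3:**
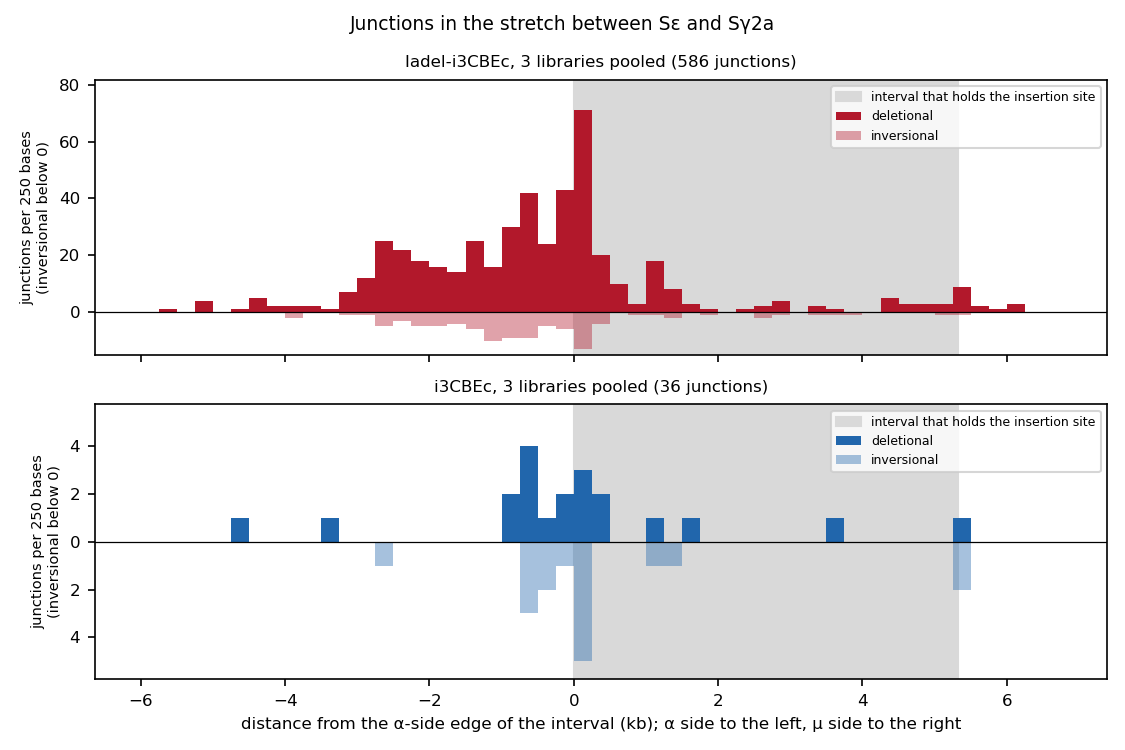
Junctions per 250 bases (y axis, deletional above 0 and inversional below, own scale per group) against the distance in kb from the α-side edge of the interval that holds the insertion site (grey). The 586 joins of Iadel-i3CBEc peak at that edge and extend about 3 kb towards α, and the 36 joins of i3CBEc lie nearer to the edge. The edge itself was placed by where prey was read in these data and is not the insertion site.

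The stretch joins were spread over single positions. In Iadel-i3CBEc they used 486 positions, 401 of them once, and in i3CBEc 36 positions once each, of which 114516993, 114518170 and 114518922 lie nearest to ε. The 3 most used positions of Iadel-i3CBEc are shown by reads that span them, with 20 bait bases first and bases shared by both sides, or inserted, in capitals.
114521747, library 1, 1 shared base: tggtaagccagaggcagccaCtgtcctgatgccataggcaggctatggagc
114521747, library 1, 3 shared bases: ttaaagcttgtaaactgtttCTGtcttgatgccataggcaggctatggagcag
114521747, library 2, 4 shared bases: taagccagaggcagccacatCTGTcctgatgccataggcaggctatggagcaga
114521747, library 2, 3 inserted bases: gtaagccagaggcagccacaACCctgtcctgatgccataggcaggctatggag
114517207, library 1, 1 inserted base: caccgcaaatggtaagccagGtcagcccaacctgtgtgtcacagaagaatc
114519109, library 1, 2 shared bases: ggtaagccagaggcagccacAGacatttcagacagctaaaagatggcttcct
The 4 joins at 114521747 had 4 different bait ends. The join at 114519109 was read with the same bait end in all 3 libraries. Position 114517207 had 3 joins in 1 library, and 114517207 and 114519109 are 2 of 13 positions with 3 joins.

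A smaller share of joins lay next to AGCT in the stretch than in the switch regions, and a smaller share of its read positions lies that near. Positions were counted only where bases had been read. That part was 86.1% of the stretch, 39.4% of ε, 60.0% of the α unit and 19.0% of μ. The position shares thus do not describe whole regions. A join within 5 bases of an AGCT made up 13.3% of the 586 joins of the stretch in Iadel-i3CBEc, and 7.48% of all read positions of the stretch lie that near. In ε the values were 44.8% of 145 joins and 33.3% of positions. In μ they were 72.3% of 1874 joins in Iadel-i3CBEc and 64.7% of 729 in i3CBEc, with 31.8% of positions. In the α unit of i3CBEc 56.4% of 1503 joins lay that near an AGCT, with 19.5% of positions. In i3CBEc 7 of 36 stretch joins and 12 of 16 ε joins lay near an AGCT. These shares are descriptions with no test.

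Per library, the share of deletional joins did not overlap between the groups in μ and in the stretch. The i3CBEc values in the stretch rest on 13, 17 and 6 joins. A deletional join has the prey on the minus strand, like the bait, and loses the DNA between. An inversional join has the prey on the plus strand. Outside the IgH window, also in the setting of deletional joins alone, the word deletional stands for the minus strand only. A join to another chromosome has no DNA between to lose. In μ 90.1%, 88.0% and 89.8% of joins were deletional in the Iadel-i3CBEc libraries and 82.3%, 79.9% and 81.0% in the i3CBEc libraries. The means were 89.3% ± 1.14 and 81.0% ± 1.17 (SD, n = 3 each). In the stretch 82.7%, 77.3% and 88.1% were deletional in Iadel-i3CBEc and 46.2%, 70.6% and 33.3% in i3CBEc, which are 485 deletional against 101 inversional joins and 20 against 16. The means were 82.7% ± 5.41 and 50.0% ± 18.9 (SD, n = 3 each). Of 6 units, μ and the stretch (33.3%) did not overlap, each with exact permutation p = 0.1 and 0.3 after adjustment over the units.

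Over all acceptors, deletional joins made up 82.9% ± 4.73 in Iadel-i3CBEc and 80.5% ± 1.24 in i3CBEc, and the libraries overlapped. Each group's leading acceptor had a like share of deletional joins, 82.7% in the stretch of Iadel-i3CBEc and 81.1% ± 1.16 in the α unit of i3CBEc. In ε the shares were 82.3% ± 2.25 and 76.7% ± 25.2, the latter from 16 joins. In γ2a, 22 of 26 joins of Iadel-i3CBEc were deletional. Outside the IgH window, the minus-strand shares were 49.3% ± 1.88 and 50.6% ± 2.09 (SD, n = 3 each), and overlapped. In the μ unit of the groups without an insertion, which were read in several runs, 86.5% to 94.1% of joins were deletional in the starting line and 87.8% to 93.1% in Iα-deleted cells. In the insertion cells without the 3'CBEs it was 70.9% to 82.1%. Starting-line libraries of run 490, the run of Iadel-i3CBEc, stood at 90.0% to 94.1%, and those of other runs at 86.5% to 88.5%. Iα-deleted libraries stood at 91.2% to 93.1% in run 490 and at 87.8% to 90.3% in run 482. The part of the run in the μ difference between the groups was not tested. In the α unit, 96.4% to 98.5% of the starting line's joins were deletional. The insertion cells without the 3'CBEs stood at 79.4% to 81.4% there. The 81.1% of i3CBEc in α thus lay below the starting line, and this difference was not tested.

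Cut into parts after the values were seen, the difference in μ was widest away from the bait. In the far part of μ (114632500 to 114662999) deletional joins made up 91.3% ± 3.90 of 370 joins in Iadel-i3CBEc and 61.6% ± 3.15 of 91 in i3CBEc (SD, n = 3 each). The inversional joins there numbered 33 and 35. This part held 7.26% ± 0.629 and 2.37% ± 0.217 of all junctions. In the near part (114663000 to 114663999) deletional joins made up 90.3% ± 1.16 of 1044 joins and 80.5% ± 1.71 of 370. In the bait flank (114664000 to 114665010) they made up 85.4% ± 3.03 and 88.4% ± 0.418 (exact permutation p = 0.3). The median μ position lay farther from the bait in Iadel-i3CBEc, at 114663511 on average against 114663672 (difference -162 bases, exact permutation p = 0.1, no overlap).

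**Figure D4:**
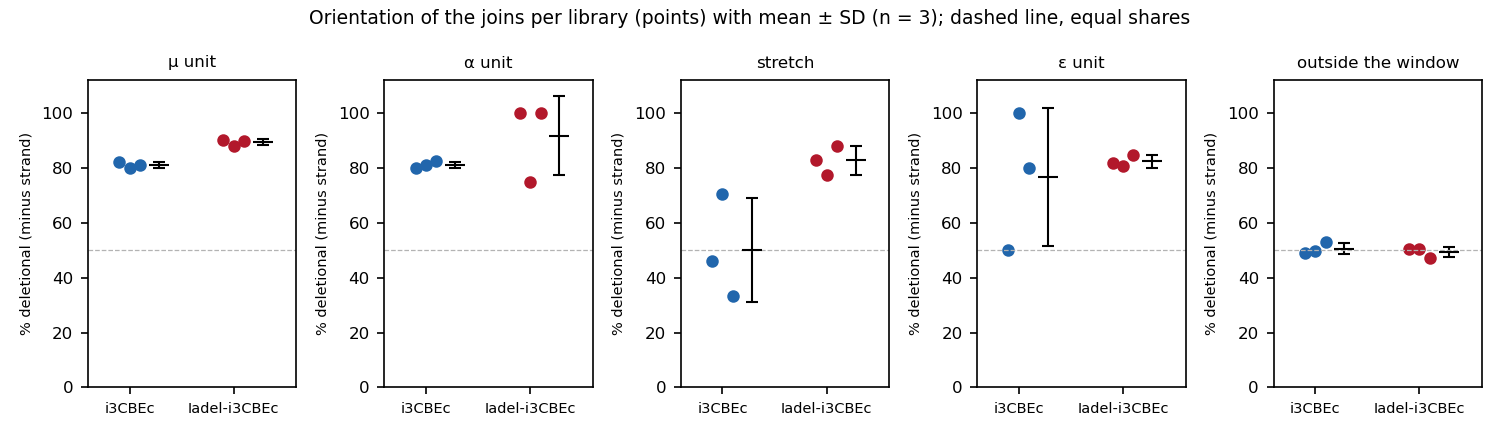
Percent of joins in deletional orientation (y axis) per library (points) with mean ± SD in μ, α, the stretch and ε. The panel outside the window gives the percent of joins on the minus strand, and the dashed line is at 50%. The groups separate in μ (89.3% against 81.0%) and in the stretch (82.7% against 50.0%). The α points of Iadel-i3CBEc rest on 3 to 8 joins, and those of i3CBEc on 6 to 17 in the stretch and 2 to 10 in ε.

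Over all junctions, the libraries of the groups overlapped in mean microhomology. With 3 libraries a group this does not show that the groups are the same, and the mix of regions differs between them. Microhomology is the number of bases at the join that match both bait and prey, and an insertion is 1 or more bases that match neither. The mean microhomology of joins without insertion was 2.07 ± 0.114 bases in Iadel-i3CBEc and 2.09 ± 0.120 in i3CBEc (SD, n = 3 each, exact permutation p = 0.6). Joins with an insertion made up 20.1% ± 0.806 and 18.3% ± 1.01 of all junctions (exact permutation p = 0.1, adjusted 0.6, no overlap). Blunt joins, with neither, made up 23.9% ± 0.906 and 24.4% ± 1.47, and joins with 4 or more bases of microhomology 16.0% ± 1.42 and 16.5% ± 0.856. Insertions of more than 10 bases were 249 of 5152 junctions in Iadel-i3CBEc (4.83%) and 131 of 3828 in i3CBEc (3.42%), and within μ 128 of 1874 (6.83%) and 29 of 729 (3.98%), pooled and with no test. Of 36 classes over 6 units, 10 (27.8%) did not overlap, and 5 of the 10 were in α, where Iadel-i3CBEc had 16 joins and 14 of them with an insertion. In 10 of these 16, the inserted and prey bases together were also read in μ. These 5 classes thus may not describe α joins.

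Within μ, insertions made up 33.1% ± 1.58 of joins in Iadel-i3CBEc and 31.1% ± 2.47 in i3CBEc, and 4 or more bases of microhomology 11.0% ± 1.89 and 13.5% ± 0.980 (SD, n = 3 each), both overlapping. Joins with 2 bases of microhomology did not overlap there, at 10.7% ± 0.679 and 12.7% ± 1.27. Outside the IgH window insertions were less frequent, at 9.08% ± 0.0844 and 8.53% ± 1.31, and 4 or more bases of microhomology made up 22.4% ± 1.68 and 22.9% ± 1.45. Blunt joins there were 26.3% ± 1.84 and 29.8% ± 1.68, with no overlap. In the pooled μ joins, 4 or more bases made up 16.1% of the 199 inversional and 10.3% of the 1675 deletional joins of Iadel-i3CBEc, and 22.5% of 138 and 11.5% of 591 in i3CBEc.

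The leading acceptors of the groups can be set side by side. The stretch joins of Iadel-i3CBEc had 21.7% ± 0.960 insertions, 25.0% ± 2.63 blunt joins and 7.74% ± 0.505 joins with 4 or more bases, with a mean microhomology of 1.46 ± 0.0685 bases. The α joins of i3CBEc had 21.8% ± 2.18 insertions, 20.6% ± 3.54 blunt joins and 12.0% ± 0.954 joins with 4 or more bases, with a mean of 1.75 ± 0.0825 bases (SD, n = 3 each). The share with 4 or more bases was 7.17% to 8.14% per library in the former and 11.0% to 12.7% in the latter. They are different sequences, and no test was made. In the stretch itself the 36 joins of i3CBEc had 5 insertions, and none of its 6 classes separated the groups.

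**Figure D5:**
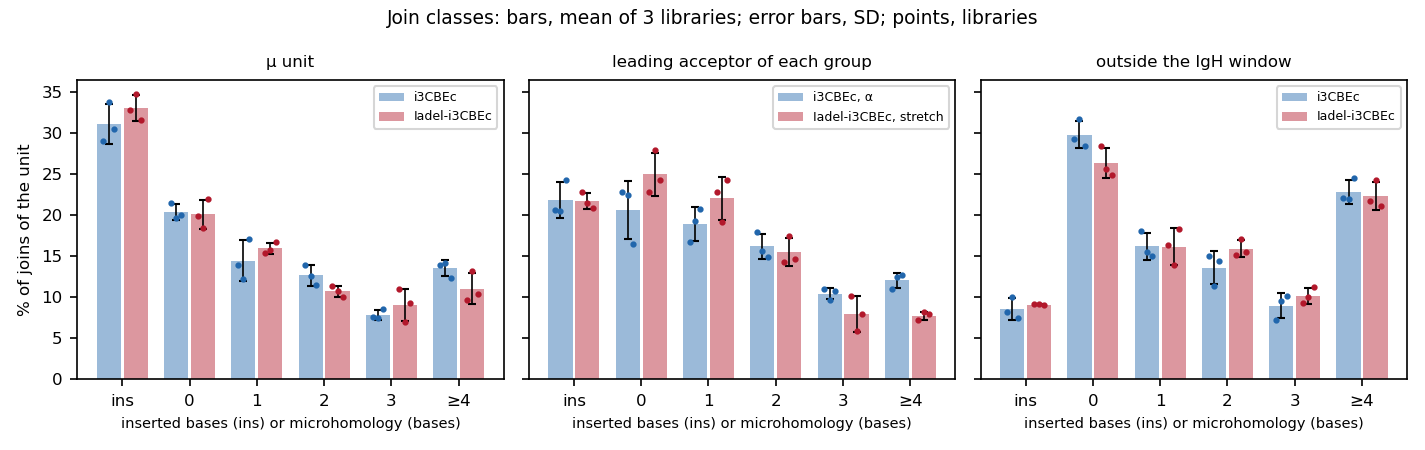
Percent of joins (y axis) by class of join (x axis: ins, with inserted bases; 0 to 3, and 4 or more bases of microhomology) in μ, in the leading acceptor of each group and outside the IgH window; bars are means of 3 libraries, error bars SD, points libraries. Insertions are near 33.1% and 31.1% in μ, near 21.7% and 21.8% in the leading acceptors, and near 9.08% and 8.53% outside the window.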

How the data were processed

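The files are the authors' deposited junction tables of 3 Iadel-i3CBEc and 3 i3CBEc libraries, with 1 line per junction, positions in mm9 and no normalisation. Bowtie2 and mm9 are named per the submitters' processing notes, and filter settings are not given in the sources used here. No deposited line of these libraries carries a filter flag, and repeats of a join (0.477% to 1.11% of a library) were kept. Libraries without an insertion, used for the spread and for the context values, were moved by 99 bases to match. The move covered all chromosome 12 positions on the μ side of the interval's α-side edge. Positions within the interval, where the insertion site is not known, were thus moved too. From Iα-deleted library 4, 3075 reads of other libraries were removed.

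Regions were placed around blocks of AGCT density (1-kb bins with a minimum of 2000 bases read and 1 motif per 100 bases), limits set after seeing the data so that block borders match the stretch, and named by gene order in a table of another build. Shares are percent of all junctions of a library. The IgH window reached 250 kb downstream and 20 kb upstream of the bait. Tests were two-sided exact permutation tests (20 splits) and limma 3.58.1 (R 4.3.3) with Benjamini-Hochberg adjustment on log2(percent + 0.05), bins of at least 10 junctions. In a simulation of 62 bins, every library started from the mean share over all 21 libraries, not from the shares of the compared groups. There 5 of 6 bins raised 8-fold and 3 of 6 lowered 8-fold were recovered, with 0 false calls. Bins empty in a compared group were not simulated as empty, so these rates need not hold for this comparison. Bins named are all tested bins of the stretch, ε and γ2a and the 8 largest others, and positions the 3 most used. Libraries, lists and regions were chosen with earlier results of these data known. Same-numbered libraries did not deviate together (r of 0.0840, 0.00632 and -0.0492 over 40 bins), so numbers do not pair libraries.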

Additional observations from a re-analysis of the deposited data

How the results depend on the processing

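With 3 libraries a group the exact permutation tests cannot pass 0.05, so they say nothing about stability; depth limits γ3, γ1 and γ2b to 0 to 3 joins a group. All values here are Iadel-i3CBEc minus i3CBEc. The shares of the acceptors, of all acceptors together, of μ and of the stretch kept their direction with collapsed repeats, shares within the IgH window, deletional joins alone, prey of at least 40 bases, joins of 1 library alone and reads not found in μ; these last 3, and the scale without α, were chosen after seeing the data. The median stretch position and the share on its α side were recomputed only with collapsed repeats, borders moved inward by 1 kb, joins of 1 library alone, each library left out and the replicate block, and kept their direction. Outside 10 kb around the bait, μ and upstream give no value. Past the threshold in limma were α (-6.83), the stretch (3.64), ε (2.79), γ2a (2.33), μ (0.94) and the acceptor total (-1.43). Per 100 μ junctions, the direction reversed for the regions downstream (-0.913) and upstream (-2.44) and for junctions outside IgH (-77.1). As percent of junctions outside the α unit, which gives no value for α or the acceptor total, downstream (-0.244), upstream (-0.424) and outside IgH (-17.1) reversed too, and 16 bins were called, 16 of the 26 shared. With deletional joins alone downstream was -0.0953 and without joins of more than 1 library -0.0463, and mean microhomology was then 0.00504. Bins of 2 kb gave 16 calls, 12 higher and 4 lower, of 44 tested, and bins of 500 bases 37 (22 and 15) of 85; other settings gave 22 to 32, with 21 to 26 of the 26 bins shared.

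Leaving out each library in turn, the difference ranged from -0.139 to 0.137 downstream, -0.0398 to 0.0 for γ3, -0.0359 to 0.0 for γ2b, -7.66 to 17.3 for deletional ε joins (-7.66 without i3CBEc library 1) and -0.0915 to 0.0414 for mean microhomology; downstream and mean microhomology changed sign without Iadel-i3CBEc library 3 and without i3CBEc library 3. The called bins ranged from 24 to 27. The library numbers share only a number: a replicate block changed no direction, gave 25 called bins of 40 against 26 of 40 without it, and its exact sign-flip permutation test cannot go below p = 0.25.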
